A study of Mus musculus with 9 samples.

Results

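The cytosolic ribosomal protein genes encode the proteins of the large (Rpl genes) and small (Rps genes) subunits of the ribosome outside mitochondria. They were taken by symbol from the GENCODE mouse annotation as protein-coding genes named Rpl or Rps and a number, with Rplp0, Rplp1, Rplp2 and Rpsa, and without the Rps6k kinases. The rule gave 83 genes, of which 51 belong to the large and 32 to the small subunit. Of these, 81 had a count in any library and 79 were tested (47 large, 32 small), among 22262 genes with a count and 17441 genes tested. Rpl10l and Rpl39l had no count, Rpl24 and Rpl3l were too low to be tested, and 6 pseudogenes whose symbols also fit (Rps4l, Rps12l1, Rpl32l, Rpl6l, Rps3a2 and Rps3a3) were left out.

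The RNA came from a piece of the upper colon of 9 wild-type female C57BL/6N mice aged 12 months. From weaning, 4 of them (WT_SE mice 1, 2, 3 and 5) lived in the standard environment (SE), in small groups in ordinary cages. The other 5 (WT_EE mice 1 to 5) lived in the enriched environment (EE), in larger groups in larger cages with tunnels, wheels and objects that were moved regularly, so that group size, cage and activity cannot be told apart in this comparison. The question here is whether the genes for the protein synthesis machinery differed in the colon between the housing conditions. Sequencing covered the 3′ end of each messenger RNA (mRNA), and each count is a molecule told from its copies by a random tag, and long and short transcripts give a like number of counts.

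A ribosome holds about the same number of copies of nearly all of its proteins, and their mRNAs are among the more abundant in dividing tissue such as gut epithelium. Many of these mRNAs begin with a C followed by a run of C and T (the 5′ terminal oligopyrimidine or TOP motif), through which the kinase mTOR and the RNA-binding protein Larp1 set their translation together. Many of the genes have left processed pseudogenes in the genome, which are copies of the mRNA whose sequence can be close to that of the gene.

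In RefSeq for GRCm38.p6, 63 of the members had a promoter entry, and in 13 of them (20.6%) the start was a C followed by at least 4 C or T. Of all 27025 genes with an entry, 3.01% had such a start. A run of at least 6 C or T within 15 bases of a start was found in 60.3% of the members and 32.7% of all genes. Windows of 30 bases, with 15 before the start, are shown for genes whose values are described below, in the direction of transcription. Capitals mark the C at the start and the C and T that follow it without a break. The first 5 genes carried the TOP motif, and Rps3a1 and Rpl27a did not at the annotated start.
Rpl14 (chr9:120571502-120571531, plus strand): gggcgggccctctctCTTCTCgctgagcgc
Rpl35 (chr2:39005117-39005146, minus strand): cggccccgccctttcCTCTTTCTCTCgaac
Rps27 (chr3:90213634-90213663, minus strand): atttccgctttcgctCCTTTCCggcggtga
Rps6 (chr4:86857353-86857382, minus strand): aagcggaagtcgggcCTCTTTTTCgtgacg
Rps10 (chr17:27635230-27635259, minus strand): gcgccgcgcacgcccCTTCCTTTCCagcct
Rps3a1 (chr3:86142654-86142683, minus strand): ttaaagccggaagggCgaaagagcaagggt
Rpl27a (chr7:109519180-109519209, plus strand): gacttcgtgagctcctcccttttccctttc
In Rpl27a the annotated start lies inside a run of C and T but is not a C. The data hold no start sites, so these are descriptions of the annotation.

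Totals were 295535 to 454043 counts per library, and a floor of 3 counts per library equals 6.48 to 10.5 count-per-million (CPM), covering counting error only. The common biological coefficient of variation (CV) between mice was 15.1%. Libraries stood apart in several ways that touch the results. The library of WT_EE mouse 2 was the shallowest. The summed level of the 8 smooth muscle markers was 3929 CPM in WT_EE mouse 2 and 3931 in WT_EE mouse 4, against 2211 to 2799 in the others, and that of the 10 epithelial markers was 3779 and 3900 against 2826 to 3428. All 8 and all 10 of these markers had counts. Epithelial markers lay at a count level where counts followed depth less than in proportion (Phgr1 had 100 to 137 counts). The 892 other genes with a mean of 80 to 170 counts also took more there, at 27.0% and 26.4% of counts in WT_EE mice 2 and 4 against 21.9% to 25.9% in the others. The epithelial sums therefore do not show a difference in cell types. The 8 adipocyte markers summed to 906 CPM in WT_SE mouse 1 and to 80.8 to 476 in the others, and all 8 had counts. B-cell markers (8 of 9 with a count) summed to 73.1 and 69.6 CPM in WT_SE mice 1 and 2 and to 0 to 10.9 in the others. By name, 2 libraries end in L3 (WT_SE mice 1 and 3) and the other 7 in L2, and the labels do not say what the ending means.

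Most members had similar counts, at a level where counts followed depth less than in proportion, so closeness in counts does not show equal mRNA levels. A mean of at least 80 counts per mouse was reached by 57 members, with the highest at 169. Of all genes with a count, 980 (4.40%) reached that level. The highest by normalized CPM were Rplp1, an acidic protein of the stalk that binds elongation factors, and the small subunit genes Rps20, Rps12, Rps29 and Rps26. Counts of Rplp1 were 127, 145, 103 and 164 in WT_SE mice 1, 2, 3 and 5 and 217, 147, 232, 199 and 187 in WT_EE mice 1 to 5. The range of Rps20 was 129 to 169 counts in WT_SE and 112 to 187 in the enriched mice. Rps20 (420 ± 35.2 CPM in WT_SE, SD, n = 4) and Rps12 (392 ± 49.0) did not differ beyond their spread.

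**Figure D1:**
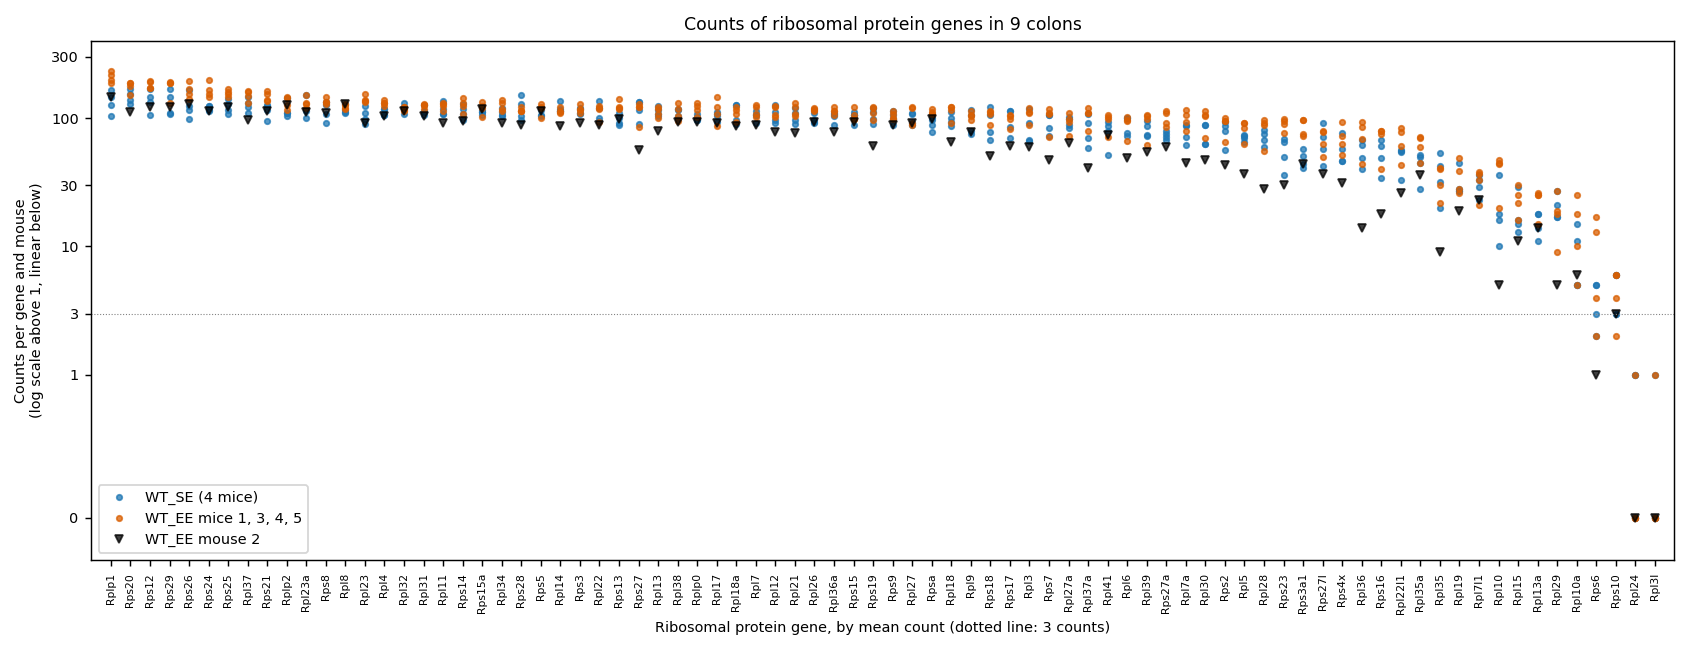
Counts of 80 ribosomal protein genes with a count (horizontal axis, ordered by mean count) in each of 9 mice (vertical axis, log scale above 1 count). Blue points are WT_SE mice, orange points are WT_EE mice, and black triangles are WT_EE mouse 2. The genes at the left form a narrow band near 100 counts, and the triangles fall below the other points among genes at lower counts.

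Summed over the 57 members, counts were 5070 in WT_EE mouse 2 and 7383 in WT_EE mouse 1, whose totals were 295535 and 454043. On log scales the slope of the summed counts against the library total was 0.768 over 9 mice, where 1 would mean proportion, and 0.687 without WT_EE mouse 2. The 892 other genes with a mean of 80 to 170 counts had a slope of 0.539. The 20 members with a mean of 10 to 80 counts went the other way, with a slope of 1.96 over 9 mice and 1.56 without WT_EE mouse 2, against 1.17 and 1.15 for other genes at that level. How multi-mapped reads were counted is not given in the sources used here, and the cause of the slope was not tested.

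A few members were far below the band. Rps6, whose protein is phosphorylated downstream of mTOR, had 5, 3, 5 and 2 counts in WT_SE and 17, 1, 2, 4 and 13 in WT_EE. Rps10 had 6, 3, 3 and 6 counts in WT_SE and 6, 3, 2, 6 and 4 in WT_EE. Rpl24 and Rpl3l had 0 or 1 count in each mouse. Rpl10a had 11, 5, 5 and 15 counts in WT_SE and 25, 6, 18, 5 and 10 in WT_EE. These are the 5 lowest members with a count, and a ribosome contains all of their products except that of Rpl3l, which is a form known from muscle.

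For some of these genes, pseudogenes named after them held more counts than the gene. Of 53 members with such pseudogenes, 7 had fewer counts than their pseudogenes: Rps6, Rps10, Rpl10a, Rpl10, Rpl36, Rpl7a and Rpl17. Over 9 mice Rps10 had 39 counts and its 2 pseudogenes 322, of which Rps10-ps2 had 270. Rps6 had 52 counts and its 4 pseudogenes 401. Rpl10a had 100 counts and Rpl10a-ps1 had 373. Rpl10, on the X chromosome, had 241 counts and Rpl10-ps3 had 796, and the last 150 bases of their annotated transcripts were identical. Rpl36 had 523 counts and Rpl36-ps2 had 784. The last 150 bases of other members were also shared, at 97% identity or more, with genes not named as their pseudogenes. Over 9 mice Rps27 had 987 counts and Rps27rt 743, Rplp1 had 1521 and Gm10073 753, and Rpl35 had 289 and Gm2000 835. Levels and differences of all these genes are therefore uncertain, since molecules of the gene and of the copy may not have been told apart. All 155 named pseudogenes together took 0.407% to 0.560% of all counts in the standard mice and 0.381% to 0.425% in the enriched mice, which overlapped. They were taken by name, and the annotation classes Rpl10-ps3, Rpl9-ps6, Rpl36a-ps1 and Rps12-ps3 among them as protein-coding.

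**Figure D2:**
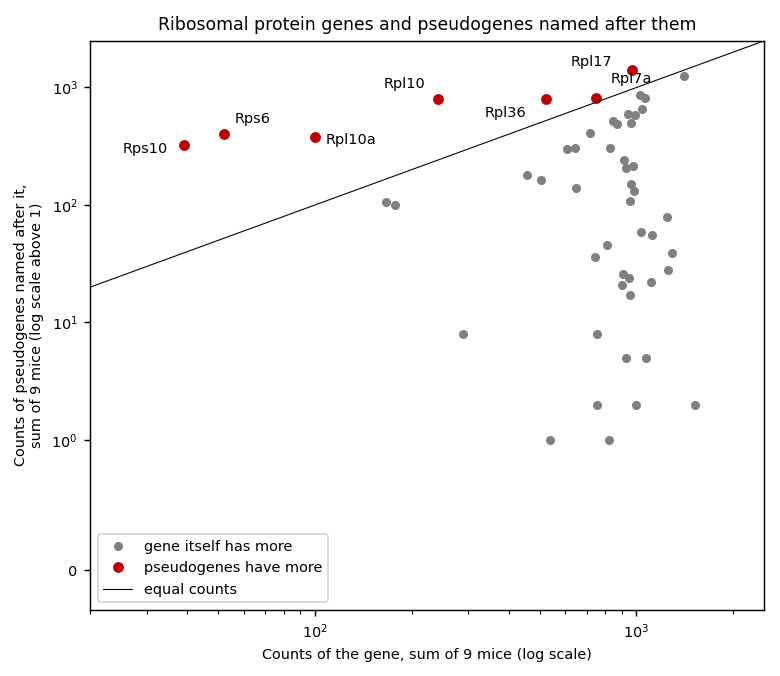
Each point is a ribosomal protein gene with named pseudogenes, with its own counts summed over 9 mice on the horizontal axis (log scale) and the counts of its pseudogenes on the vertical axis (log scale above 1). Red points are the 7 genes above the line of equal counts, and Rps10, with 39 against 322 counts, lies at the left.

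The ranges of the summed share of counts of the ribosomal protein genes overlapped between environments. Most of that sum comes from members whose counts followed depth less than in proportion, so the share may not show a difference in mRNA. The share was 1.94%, 1.84%, 2.04% and 2.10% in WT_SE mice 1, 2, 3 and 5 (mean 1.98% ± 0.116, SD, n = 4). It was 1.91%, 1.87%, 1.85%, 2.10% and 1.96% in WT_EE mice 1 to 5 (mean 1.94% ± 0.0993, n = 5). The difference of -0.0412 percentage points was smaller than either SD. Large subunit genes took 1.14% ± 0.0726 in WT_SE and 1.10% ± 0.0516 in WT_EE, and small subunit genes took 0.840% ± 0.0463 and 0.841% ± 0.0486. The ratio of small to large subunit counts was 0.764, 0.740, 0.713 and 0.740 in WT_SE and 0.769, 0.758, 0.751, 0.772 and 0.787 in WT_EE. WT_SE mouse 1 lay inside the range of WT_EE and the other 3 WT_SE mice below it. In whole tissue, fewer cells of a type and less RNA per cell cannot be told apart.

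In the edgeR quasi-likelihood fit over all genes, 6 of 79 members (7.59%) had an unadjusted p under 0.05, the limit used by the study, and the share over all genes tested was 7.65%. In WT_EE 2 were higher (4.31% of all genes were) and 4 were lower (3.34% of all genes were). The share among ribosomal protein genes was near that of all genes. No member passed after Benjamini-Hochberg adjustment over all genes in edgeR, DESeq2 or limma-voom, the smallest adjusted p in edgeR being 0.276, and 0.0401% of all genes did. Estimates were positive for 29 and negative for 50 members, with a median log2 fold change (WT_EE over WT_SE) of -0.06, against 0.01 over all genes tested and -0.05 over 892 other genes of 80 to 170 counts. For 75 of 79 members the estimate was within 0.5 of 0 on the log2 scale, against 12418 of 17441 over all genes. It was so for all 57 members with a mean of 80 or more counts and for 882 of the 892 other genes of 80 to 170 counts. Counts at that level followed depth less than in proportion, so small estimates there may not show equal mRNA levels. The large subunit had a median of -0.06, with 1 higher and 3 lower, and the small subunit -0.04, with 1 higher and 1 lower.

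The count of calls depended on single libraries. Without WT_SE mouse 2 it was 12 (3 higher, 9 lower), or 15.2% of members against 9.14% of all genes. Without WT_SE mouse 3 it was 4, or 5.06% against 5.19%, and without WT_EE mouse 2 it was 7 (4 higher, 3 lower), or 8.86% against 7.41%. It was 3, or 3.80%, in the L2 libraries alone, with the library ending as a covariate and with DESeq2, against 3.98%, 3.94% and 3.69% of all genes. With the counts of named pseudogenes added to each gene, 9 were called (2 higher, 7 lower), or 11.4% against 7.68% of all genes, and the median was -0.13. With genes of the same 3′ end added instead, a setting chosen after seeing the data, 5 were called (2 higher, 3 lower). This was 6.33% of members against 7.66% of all genes.

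**Figure D3:**
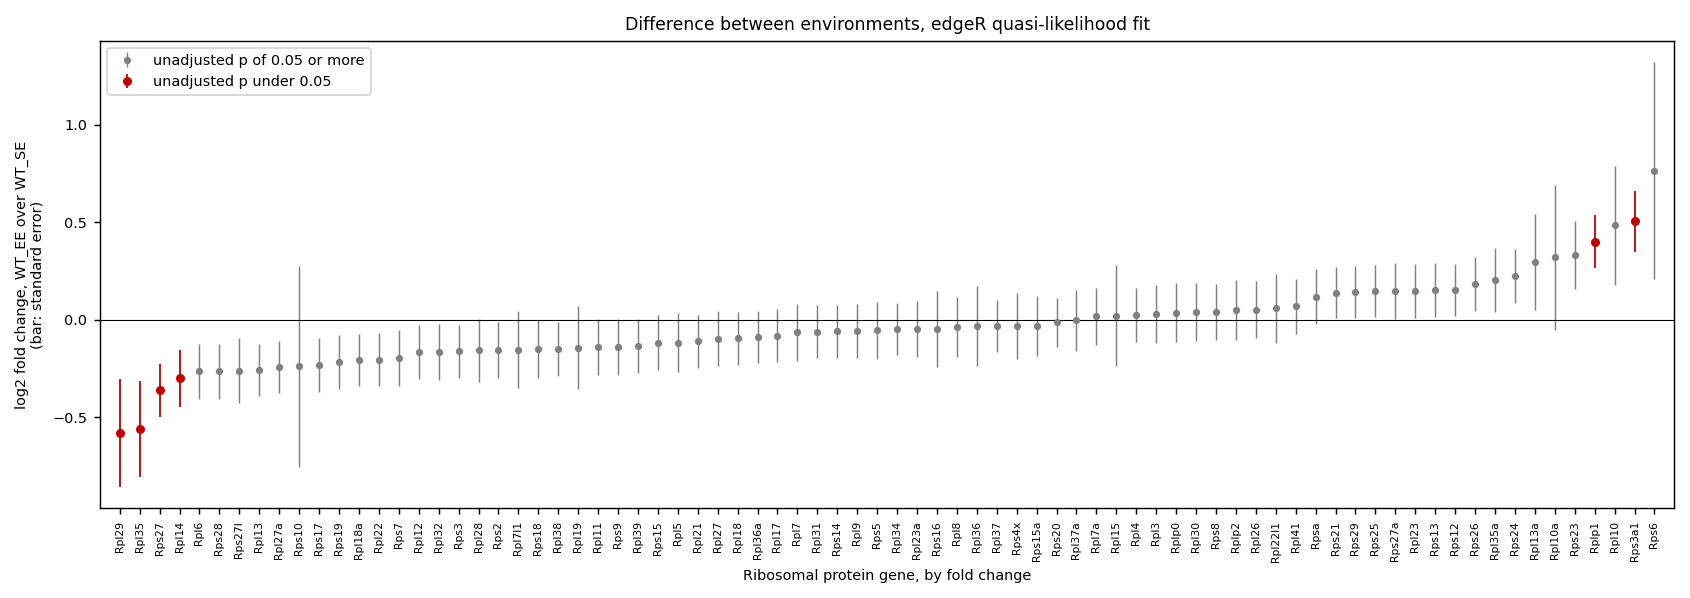
Log2 fold change of WT_EE over WT_SE (vertical axis, bars are standard errors) for 78 tested ribosomal protein genes, ordered by the estimate. Red points are the 6 genes with an unadjusted p under 0.05, of which Rps3a1 and Rplp1 lie above 0 and Rps27, Rpl14, Rpl35 and Rpl29 below.

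Rps3a1 encodes a small subunit protein near the exit of the mRNA channel. Its normalized CPM was 149, 142, 139 and 120 in WT_SE mice 1, 2, 3 and 5 and 207, 153, 164, 226 and 222 in WT_EE mice 1 to 5. All 5 WT_EE values lay above all 4 WT_SE values. The means were 137 ± 12.2 and 194 ± 33.6, and the log2 fold change was 0.50 (SE 0.157, unadjusted p = 0.00266, adjusted p = 0.276 with edgeR). The exact permutation test of the values gave p = 0.0159 (two-sided), the smallest that 126 splits of 9 mice allow. The estimate kept its sign and its unadjusted p under 0.05 in the 22 alternatives run at that threshold. Its related pseudogenes Rps3a2 and Rps3a3 had 0 to 2 counts in each mouse. No other gene matched the last 150 bases of Rps3a1 at 97% identity or more over at least 140 bases. At a looser limit of 90% over 100 bases 5 genes did, and their counts were not added to it.

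Rplp1 was also higher in WT_EE by the unadjusted p. Its normalized CPM was 332, 404, 348 and 448 in WT_SE and 468, 512, 507, 615 and 433 in WT_EE. The highest WT_SE value, of mouse 5, lay above the lowest WT_EE value, also of mouse 5. The log2 fold change was 0.40 (SE 0.136, unadjusted p = 0.00556, adjusted p = 0.357 with edgeR) and the exact permutation p was 0.0317. In the L2 libraries alone it was 0.26 (unadjusted p = 0.155 with edgeR). Gm10073, which shares the 3′ end at 97.3% identity, had 63 to 105 counts per mouse and a log2 fold change of 0.05. With its counts added, Rplp1 had a log2 fold change of 0.28 (unadjusted p = 0.0306, adjusted p = 0.577 with edgeR). Its stalk partners did not pass the test: Rplp0 had 289 ± 29.2 CPM in WT_SE and 299 ± 72.5 in WT_EE (log2 0.04), and Rplp2 334 ± 47.3 and 350 ± 91.2 (log2 0.05).

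Rps27, a zinc finger protein of the small subunit, was lower in WT_EE by the unadjusted p. Its normalized CPM was 347, 320, 304 and 364 in WT_SE and 279, 195, 269, 263 and 285 in WT_EE. No WT_EE value reached the lowest WT_SE value, and WT_EE mouse 2 was the lowest by far. The log2 fold change was -0.36 (SE 0.136, unadjusted p = 0.0111, adjusted p = 0.442 with edgeR), and the exact permutation p was 0.0159. The last 150 bases of Rps27rt are identical to those of Rps27. Rps27rt had 98, 78, 98 and 97 counts in WT_SE and 89, 58, 87, 60 and 78 in WT_EE, with a log2 fold change of -0.49 (unadjusted p = 0.00142, adjusted p = 0.217 with edgeR). The sum of both genes was 601 ± 44.8 normalized CPM in WT_SE and 448 ± 29.5 in WT_EE without overlap (log2 -0.42, adjusted p = 0.216 with edgeR). Rpl27a, of the large subunit, had the same separation with a smaller difference, at 256, 245, 281 and 279 CPM in WT_SE and 237, 223, 205, 226 and 227 in WT_EE. Its log2 fold change was -0.24 with an unadjusted p of 0.0753 in edgeR. The exact permutation p was 0.0159, which any gene without overlap between these mice has. Rpl27a was named for that lack of overlap, so this p adds no support. Rps3a1, Rps27 and Rpl27a were the 3 members of 79 whose environments did not overlap, and 2.58% of all genes tested did not overlap.

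The other calls were lost when single mice were left out. Rpl35, at the exit of the peptide tunnel, had 53, 20, 42 and 32 counts in WT_SE and 40, 9, 30, 22 and 41 in WT_EE. The high WT_SE values came from mice 1 and 3, whose library names end in L3. Its log2 fold change was -0.56 (SE 0.246, unadjusted p = 0.0279, adjusted p = 0.559 with edgeR), and in the L2 libraries alone it was 0.00169. Gm2000 is identical to Rpl35 over the last 149 bases and had 77 to 108 counts per mouse, and with them added the log2 fold change was -0.27 (unadjusted p = 0.0465, adjusted p = 0.639 with edgeR). Rpl35 also overlaps Arpc5l on the opposite strand, which had 364 counts over 9 mice against 289 for Rpl35, and whether counting used the strand is not given in the sources used here. Rpl29 had 27, 17, 21 and 17 counts in WT_SE and 27, 5, 19, 9 and 18 in WT_EE (log2 -0.58, SE 0.278, unadjusted p = 0.0421, adjusted p = 0.628 with edgeR). Gm3550 shares the 3′ end of Rpl29 at 98.0% identity and had 50 counts over 9 mice. With these added, the call of Rpl29 was lost (log2 -0.51, unadjusted p = 0.0517, adjusted p = 0.659 with edgeR). Without WT_EE mouse 2 the p of Rpl29 was 0.112, and without WT_SE mouse 1, which had the high adipocyte markers, those of Rpl35 and Rpl29 were 0.158 and 0.137. Rpl14 had 298, 315, 460 and 320 normalized CPM in WT_SE and 237, 300, 269, 349 and 259 in WT_EE (log2 -0.30, SE 0.146, unadjusted p = 0.0469, adjusted p = 0.641 with edgeR). WT_SE mouse 3 was far above the rest, and without it the log2 fold change was -0.14 (unadjusted p = 0.367 in edgeR). Rpl14-ps1 held 867 counts against 1024 for Rpl14.

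**Figure D4:**
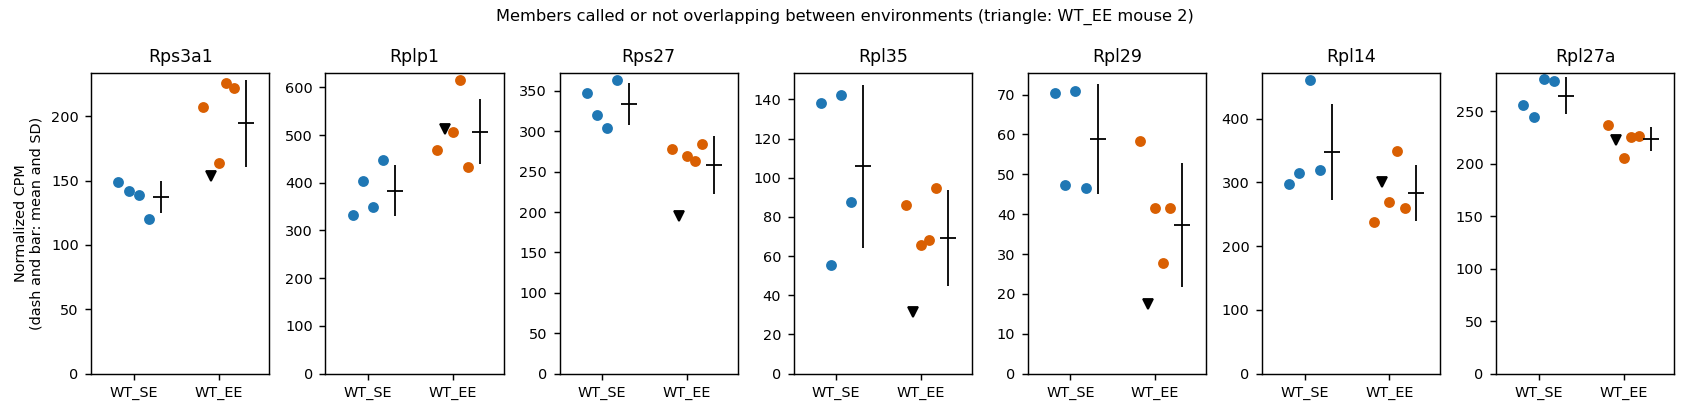
Normalized CPM (vertical axes, from 0) of 7 ribosomal protein genes in 4 WT_SE mice (blue) and 5 WT_EE mice (orange, with WT_EE mouse 2 as a black triangle); dashes and bars are the mean and SD. The groups do not overlap for Rps3a1, Rps27 and Rpl27a, and overlap for Rplp1, Rpl35, Rpl29 and Rpl14.

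Rpsa, Rps19, Rpl5 and Rpl11 were read by name and did not pass the test. Rpsa, which also acts as a laminin receptor, had 259 ± 19.4 CPM in WT_SE and 284 ± 49.4 in WT_EE (log2 0.12). Rps19, mutated in Diamond-Blackfan anaemia, had 301 ± 35.6 and 257 ± 32.4 (log2 -0.22). Rpl5 and Rpl11, which with the 5S RNA can bind Mdm2 and so stabilize p53, had log2 fold changes of -0.12 and -0.14. Of the 13 members with the TOP start in RefSeq, 3 (Rpl14, Rps27 and Rpl35) were called, all lower, where 3.34% of all genes were called lower. Among all 79 members tested 4 were called lower, and among 892 other genes of 80 to 170 counts 38 were. The median log2 fold change of the 13 was -0.15, and the calls of Rpl14 and Rpl35 were lost when single mice were left out. Which members count among the 13 rests on the annotated start alone.

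Some ribosomal proteins have a paralog that can take their place in certain tissues. Rpl22l1 had 54.3 counts per mouse on average and was at 29.6% to 69.3% of Rpl22 in the same library. Rps27l, a gene induced by p53, was at 36.8% to 69.3% of Rps27. Rpl7l1 was at 17.6% to 36.6% of Rpl7. The log2 ratio of paralog to gene differed between environments (WT_EE minus WT_SE) by 0.20 for Rpl22l1, 0.15 for Rps27l and -0.08 for Rpl7l1. None of the 3 passed the exact permutation test (p = 0.508, 0.556 and 0.794, all 0.794 after Benjamini-Hochberg adjustment over the 3 pairs), and the ranges overlapped in each. The other pairs could not be compared: Rpl3l had 0 or 1 count per mouse, Rpl10l and Rpl39l had none, and the pseudogene Rps4l had 0 to 7 beside 31 to 93 for Rps4x.

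Members of middling level took the smallest share of counts in WT_EE mouse 2. The 20 members with a mean of 10 to 80 counts, limits chosen after the values were seen, took 0.273%, 0.223%, 0.230% and 0.254% of counts in WT_SE mice 1, 2, 3 and 5. They took 0.275%, 0.153%, 0.267%, 0.227% and 0.286% in WT_EE mice 1 to 5. WT_EE mouse 2 was thus at 0.600 of the mean of the other 8 mice, which lay between 0.876 and 1.12 of that mean. The 7493 other genes with the same mean counts were at 0.950 in WT_EE mouse 2, and the 57 members with 80 counts or more took 1.72% of counts there against 1.58% to 1.87% in the other mice. Beside genes of like level these members were low there too. The 892 other genes of 80 to 170 counts were at 1.13 of their mean in WT_EE mouse 2. Of the 30 members with 80 to 110 counts, 36.7% were lowest in that mouse against 6.07% of other genes. Of the 27 members with 110 to 170 counts, 0% were lowest in it against 1.39% of other genes.

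The low share in WT_EE mouse 2 was spread over many of the 20 genes. In WT_EE mouse 2, 14 of them (70.0%) were under 0.7 of the mean of the other mice and none was above it, while 21.7% of the other genes at this level were under 0.7 and 38.5% were above 1. Rpl10 had 5 counts in WT_EE mouse 2 and 10 to 47 in the others. Rpl36 had 14 against 40 to 93, and Rpl35 had 9 against 20 to 53. Rps16 and Rpl28 had 18 and 28 counts against 34 to 80 and 55 to 96. With genes of the same 3′ end added, Rpl35 was no longer low. It was then at 324 normalized CPM in WT_EE mouse 2 and 296 to 420 in the others. Rpl10 was at 237 against 269 to 355 in that setting, and Rpl36 at 48.8 against 135 to 203. On their own counts, Rpl10, Rpl35 and Rpl36 also had the largest CV within environments among members with a mean of at least 20 counts, at 49.4%, 37.1% and 32.4%. Rpl27a had the lowest, at 5.83%, which is under the 10.5% that counting error alone gives on average. With genes of the same 3′ end added, the spread of Rpl10 and Rpl35 was smaller relative to their means. Rpl10 was then at 323 ± 36.97 normalized CPM (SD) in WT_SE and 291 ± 39.08 in WT_EE. Rpl35 was at 372 ± 49.97 and 309 ± 11.39. Rpl36, whose added gene had 7 counts over 9 mice, was at 157 ± 25.78 and 148 ± 60.81. The CVs of Rpl10 and Rpl35 therefore do not show that their mRNA varied most between mice. At the other end, Rpl7l1 and Rpl13a were at 0.959 and 0.976 of the mean in WT_EE mouse 2.

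The pattern remained with named pseudogenes added and on normalized CPM, which only rescales the same counts. The sum of the 20 genes was not examined with genes of the same 3′ end added, where Rpl35 was no longer low. With the named pseudogenes of these 20 genes added, WT_EE mouse 2 was at 0.647 of the mean of the others, and on summed normalized CPM at 0.619. WT_SE mouse 3, with a total of 299062 counts, close to the 295535 of WT_EE mouse 2, took 0.230%. WT_EE mouse 4, with smooth muscle and epithelial marker sums like those of WT_EE mouse 2, took 0.227%. Mitochondrial ribosomal protein genes were also lowest in WT_EE mouse 2, at 4472 CPM against 5087 to 6053 in the others. The part of the mitochondrial ribosomal protein genes' level in this pattern was not tested. Without WT_EE mouse 2 the median CV of the 12 members with 40 to 80 counts was 15.6%, against 21.2% with it, and that of other genes at this level was 14.8% and 15.6%. For the 8 members with 10 to 40 counts it was 26.9% without WT_EE mouse 2 and 31.4% with it, and for other genes 24.7% and 25.7%.

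**Figure D5:**
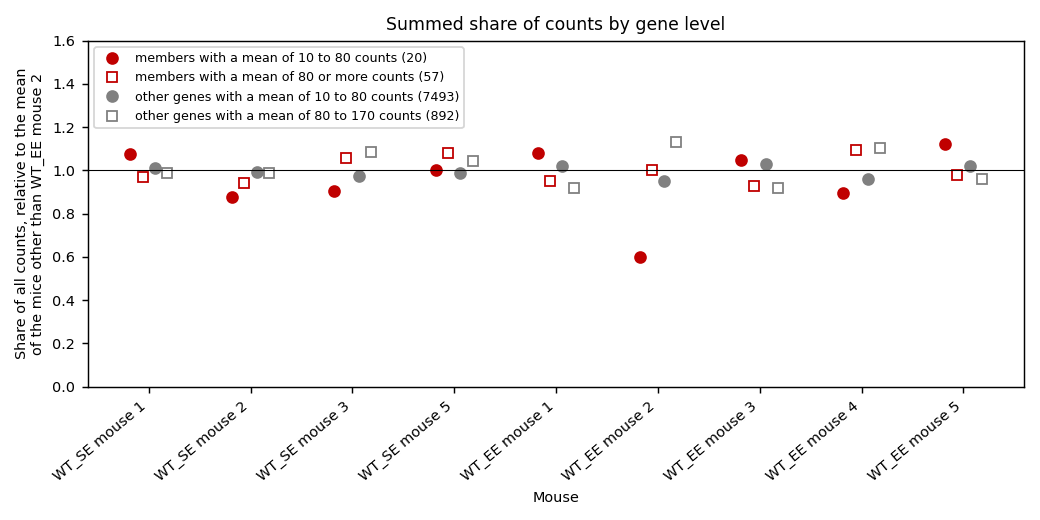
Share of all counts (vertical axis), relative to the mean of the mice other than WT_EE mouse 2, for ribosomal protein genes (red) and other genes (grey) in each mouse. Filled circles stand for a mean of 10 to 80 counts, open squares for more. The red circle of WT_EE mouse 2, at 0.600, is the lowest of all points.

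The other genes of protein synthesis were read from lists of translation factors and other TOP mRNAs, ribosome biogenesis, translation control and the mitochondrial ribosome. Of 23 other TOP genes tested, 1 was higher and 1 lower by the unadjusted p (8.70%, against 7.65% of all genes). Eef1a1, the elongation factor that brings tRNA to the ribosome, had 89, 86, 110 and 76 counts in WT_SE and 85, 76, 70, 47 and 72 in WT_EE (log2 -0.53, adjusted p = 0.299 with edgeR). Btf3, part of the complex that binds nascent chains, ranged from 3 to 12 counts in standard and 8 to 19 in enriched mice (log2 0.72, adjusted p = 0.593 with edgeR).

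Of 67 ribosome biogenesis genes, 4 were higher and 3 lower by the unadjusted p (10.4%, against 7.65% of all genes), with a median log2 fold change of 0.05. Polr1a, the large subunit of RNA polymerase I, had 12, 13, 8 and 14 counts in WT_SE and 10, 6, 6, 6 and 8 in WT_EE (log2 -0.85, adjusted p = 0.471 with edgeR). Noc2l (log2 -0.76) and Dkc1, the pseudouridine synthase (log2 -0.35), were also lower. The higher genes were Taf1d, a cofactor of RNA polymerase I (log2 0.42), Nip7 (log2 0.81), Fbl, the rRNA methyltransferase (log2 0.99), and Myc, which drives ribosome synthesis and ranged from 0 to 4 counts in standard and 2 to 15 in enriched mice.

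Of 25 translation control genes, 2 were higher and 1 lower by the unadjusted p (12%, against 7.65% of all genes). Pdcd4, an inhibitor of the helicase eIF4A that is degraded after phosphorylation by the Rps6 kinase, had 104, 93, 98 and 101 counts in WT_SE and 94, 41, 89, 53 and 82 in WT_EE. Its means were 284 ± 32.1 CPM in WT_SE and 179 ± 24.8 in WT_EE without overlap (log2 -0.65, SE 0.141, adjusted p = 0.0527 with edgeR, exact permutation p = 0.0159). Eif4a2, a form of that helicase, was higher (log2 0.78, adjusted p = 0.330 with edgeR), as was Eif2ak3, a kinase of the unfolded protein response (log2 0.54, adjusted p = 0.630 with edgeR).

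Of 77 mitochondrial ribosomal protein genes tested, 5 were higher and 1 lower by the unadjusted p (7.79%, against 7.65% of all genes). Mrps28 had 16, 12, 1 and 12 counts in WT_SE and 36, 16, 30, 25 and 34 in WT_EE. The values did not overlap on the normalized scale (log2 1.30, SE 0.301, adjusted p = 0.0783 with edgeR). Mrpl10 (log2 0.54), Mrpl2 (log2 0.60) and Mrps21 (0 to 6 counts in standard, 1 to 16 in enriched mice) were also higher, and Mrpl23 had at most 3 counts in any mouse. Mrps24 was lower and did not overlap (log2 -0.56, adjusted p = 0.460 with edgeR). No gene of the 4 lists passed after adjustment over all genes.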

How the data were processed

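Colon RNA of 9 wild-type mice was profiled by 3′ mRNA sequencing with molecular tags (Lexogen QuantSeq). The authors deposited 1 table of molecule counts for each mouse, in whole numbers and not normalized. The submitters' processing notes name fastp 0.20.0, STAR 2.7.0f (the paper names another release), featureCounts 1.6.0 of Subread, UMI-tools and GRCm38.p6. Groups followed the sample titles, and mice are separate animals. A gene was kept if any library (at least 1) had 4 CPM or more. The fit used edgeR 4.0.16 in R 4.3.3 (TMM, quasi-likelihood F test, environment only, Benjamini-Hochberg adjustment over all genes), and normalized CPM uses the TMM factors. Single values and paralog ratios (counts plus 0.5, log2) were set against each other in exact permutation tests (two-sided) with scipy 1.17.1. Transcript ends of 150 bases were compared with blastn 2.17.0 (at least 97% identity over at least 140 bases), and starts were read from RefSeq promoters. Figures used matplotlib 3.10.9. The test was checked on simulated counts.

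The members and gene lists were chosen with earlier results of these data known. Genes named are members called or without overlap, the 5 highest and 5 lowest, the paralog pairs, stalk genes, Rpsa, Rps6, Rps19, Rpl5, Rpl11, the 3 with the largest within-environment CV (mean of at least 20 counts) and up to 4 called genes per list and direction. Members low in WT_EE mouse 2 and genes with more pseudogene counts were named after their values were seen. Alternatives were other normalizations (RLE, upper quartile, totals, TMM without members), filters, tests (DESeq2 1.42.0, limma-voom from limma 3.58.1), a covariate, a block, each mouse left out, pseudogenes added and a threshold of 0.01. Of the members, 1 is not reported here by name or drawn on its own, and it is included in counts and sums.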

Additional observations from a re-analysis of the deposited data

Results flagged for a closer look

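Of 82 sets of 4 or 5 mice examined for a mouse far from the others of its environment, 9 had such a value, where chance gives about 4.1 (1 in 20). Values are normalized CPM. Rpl14 was 459.9 in WT_SE mouse 3 and 298 to 320 in the other WT_SE mice. Rps26 was 448 in WT_SE mouse 5 and 320 to 331 in the others. Rps12 was 529 in WT_EE mouse 4 and 393 to 425 in the others. Rps27 was 195 in WT_EE mouse 2 and 263 to 285 in the others, and its environments did not overlap. The remaining values rest on 0 to 7 counts, where 1 count among zeros can be flagged. The rate of 1 in 20 cannot be applied to them, so 9 against 4.1 cannot be read as an excess over chance. Rpl24 was 2.16 in WT_EE mouse 1 and 0 in the other WT_EE mice. Rpl3l was 2.78 in WT_SE mouse 2 and 2.16 in WT_EE mouse 1, and 0 in all others. The pseudogene Rps4l was 0 in WT_SE mouse 3, where the others had 2.61 to 2.78, and 21.6 in WT_EE mouse 4, where the others had 2.31 to 6.48.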

How the results depend on the processing

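Of 22 alternatives run at the 0.05 threshold, Rps3a1 and Rps27 kept their sign and an unadjusted p under it in all 22, Rplp1 in 20, and Rpl35, Rpl14 and Rpl29 in 15, 13 and 12. The estimate of Rpl35 changed sign, to 0.00169, in the L2 libraries alone. With DESeq2, 643 of all genes, 3 ribosomal protein genes (1 lower) and 8 other pathway genes were called, against 1334, 6 (4 lower) and 18 in the edgeR fit. The L2 libraries alone gave 680, 3 (1 lower) and 9, the library ending as a covariate 688, 3 (1 lower) and 9, and a threshold of 0.01 gave 410, 2 (0 lower) and 4. At 0.01 these were 2.35% of all genes and 2.53% of ribosomal protein genes. Without a filter 8 ribosomal protein genes (10.1%, against 7.08% of all genes) were called, 4 of them higher. With named pseudogenes added 9 (11.4%, against 7.68%) were called, 7 of them lower. Leaving out each mouse gave 899 to 1581 calls over all genes, 4 to 12 ribosomal protein genes (2 to 4 higher, 1 to 9 lower), a median of -0.10 to -0.02, and 11 to 19 other pathway genes. The shares called were 5.19% to 9.14% of all genes and 5.06% to 15.2% of ribosomal protein genes. No ribosomal protein gene passed after adjustment in any setting. Upper quartile scaling moved the median of all genes to -0.04 and gave 615 higher and 753 lower calls over all genes, against 751 and 583. Equal mouse numbers across environments name different animals, whose deviations correlated at -0.02, 0.05, 0.11 and 0.13 for numbers 1, 2, 3 and 5. No clear pairing by number was seen, and so few correlations cannot show that there was none. With the number as a replicate block, 1149 of all genes (6.64%) and 9 ribosomal protein genes (11.4%) were called. The share of WT_EE mouse 2 with pseudogenes added or on normalized CPM, and the addition of genes with the same 3′ end, were chosen after seeing the data. Genes at or under 3 counts allow no statement at this depth.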
